A study of Mus musculus with 8 samples.

Results

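The oligosaccharyltransferase and its alternative subunit Tusc3 were examined in the RNA-seq data of mouse NEBD-stage oocytes, that is, oocytes in which the nuclear envelope has broken down on the way to the first meiotic division. The members were chosen by symbol (Tusc3, Magt1, Stt3a, Stt3b, Ddost, Rpn1, Rpn2, Dad1 and Ostc), and all 9 were found among the 25574 genes of the expression table. The study separated oocyte lysates on sucrose gradients by SSP-profiling (Scarce Sample Polysome profiling) and sequenced RNA from 4 non-polysomal (NP) and 4 polysomal (P) libraries. NP covered the ribosomal subunits and single ribosomes and, according to the study, also held stored maternal mRNA in protein particles. P covered the heavier fractions, and the top fraction was left out. The comparison of P with NP thus asks which mRNAs sedimented in the polysome region and which in the lighter one. The study could not exclude that heavy stored particles sedimented together with polysomes. All 8 libraries came from CD1 mice, 8 weeks of age, that had received 5 IU of PMSG 46 h before collection, and no untreated or mutant group was included. Fully grown oocytes were isolated in medium with 100 µM IBMX, which holds them before nuclear envelope breakdown, cultured without IBMX for 180 min and exposed to 0.1 mg/ml cycloheximide for 10 min, and 200 pooled oocytes were loaded per gradient of 10 fractions. NP and P were pooled from lighter and heavier fractions of the same gradients, and no genotype or treatment differed between them.

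The oligosaccharyltransferase is the membrane complex of the endoplasmic reticulum that moves a preassembled glycan from a lipid carrier to asparagine residues of proteins entering the secretory pathway. It exists in alternative forms, one built around the catalytic subunit Stt3a, which acts while the chain is still being threaded through the translocon, and another built around Stt3b, which uses Magt1 or Tusc3 as an oxidoreductase subunit and acts largely afterwards. In oocytes, the zona pellucida glycoproteins and the secreted growth factors are among the proteins that carry such glycans.

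Since translation of many stored mRNAs in the maturing oocyte depends on letters near their end, these were read first from the GRCm38 transcripts of GENCODE vM21, taking 1 coding transcript per gene. A polyadenylation hexamer (AATAAA or ATTAAA) was searched in the last 50 bases and a cytoplasmic polyadenylation element, CPE (TTTTAT or TTTTAAT), in the last 100 bases, on the transcribed strand. All 9 members held a hexamer, against 79.0% of 10878 tested genes with a 3′ UTR at least as long as the window. CPE letters were found in 2 of the 9, Magt1 and Rpn1, against 19.4% of those genes. The CPE began 94 bases from the end in Magt1 and 66 bases from the end in Rpn1. The windows of 30 bases below are shown because Tusc3 and Magt1 encode interchangeable subunits whose ends differed in these letters, and because Rpn1 was the other member with a CPE. All lie in 3′ UTR exons, are written 5′ to 3′ on the strand of the gene, and have the hexamer or the CPE in capitals.
Tusc3 hexamer, chr8:39165079-39165108, plus strand: ccacaggagtgaAATAAAtgacattgtaac
Magt1 CPE, chrX:105968160-105968189, minus strand: ttcattatgtatTTTTAATatactgttcaa
Rpn1 CPE, chr6:88105227-88105256, plus strand: gaaatcaatactTTTTAATatctgcaagcc
A match describes these letters only, and the ends used by the oocyte were not measured.

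The transcripts themselves were of unequal build. Tusc3 had a coding sequence of 1044 bases and a 3′ UTR of 271 bases, and Magt1 one of 1107 bases with a 3′ UTR of 3380 bases. Stt3a and Stt3b had coding sequences of 2118 and 2472 bases with 3′ UTRs of 3580 and 1384 bases. Over 11707 tested genes with a coding transcript the median coding sequence was 1401 bases and the median 3′ UTR 915 bases. Tusc3 and Dad1 (274 bases) had the shortest 3′ UTRs of the members. Those of Ostc (548 bases), Rpn2 (596 bases) and Ddost (645 bases) were also below the median. The 3′ UTRs of Stt3b and Rpn1 (1757 bases) lay above it, and those of Magt1 and Stt3a were the longest. Within the coding sequences Tusc3 and Magt1 were identical at 70.4% of 1043 aligned bases, and Stt3a and Stt3b at 66.2% of 2093 aligned bases. Over the whole transcripts, UTRs included, the longest shared run was 17 bases for Tusc3 and Magt1 and 18 bases for Stt3a and Stt3b. These runs were far shorter than a read.

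**Figure D1:**
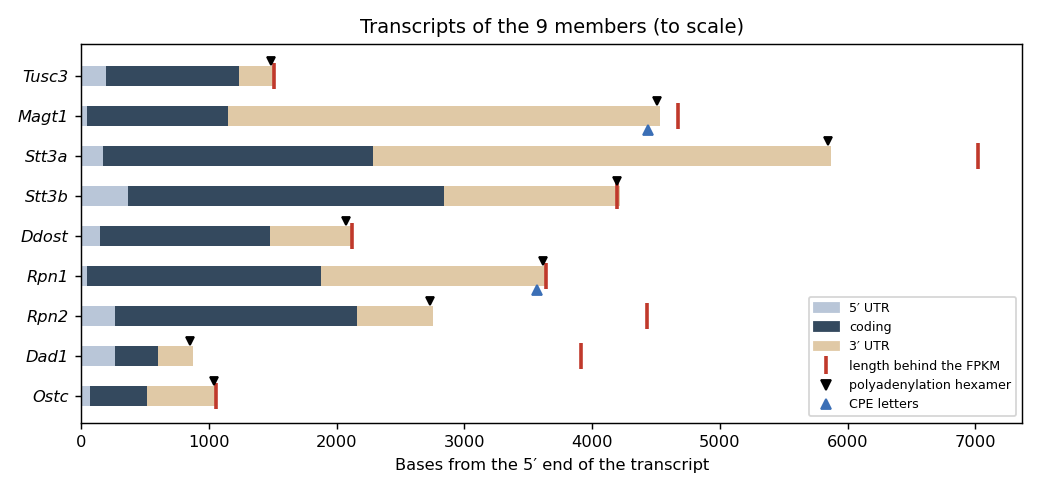
Annotated transcript of each member drawn to scale from its 5′ end (x axis, bases), with the 5′ UTR, coding sequence and 3′ UTR as bars, the polyadenylation hexamer and CPE letters as triangles, and the gene length behind the FPKM as a red line. The red line lies at the transcript's end for Tusc3 (1511 bases) but at 3916 bases for Dad1, whose transcript has 878 bases.

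Values are FPKM (read counts per length of the gene and per depth of the library), on a linear scale. FPKM is a share of a library, so fewer molecules of an mRNA in the pooled fractions and more of all other RNA cannot be told apart. In such bulk samples, fewer cells of a type and less RNA per cell cannot be told apart either. The libraries were scaled to 1299377 to 7594637 reads in NP and to 2677946 to 4699328 reads in P, as recovered from the steps between values. Fewer genes were above 0 in each P library (9139 to 11339, lowest in replicate 4) than in any NP library (11703 to 13753). The labels give no batch or date. All 10 oocyte marker genes checked were detected in every library, except that Figla was at 0 in P replicate 2. Figla was at most 3.44 FPKM in P, against 7.81 to 17.4 FPKM in NP. Of 10 granulosa and cumulus cell markers, 4 (Foxl2, Fst, Has2 and Ptx3) were at 0 in every library, and their sum, between 6.07 and 75.4 FPKM in NP and between 1.61 and 62.6 FPKM in P, came mostly from Cyp19a1 except in P replicates 3 and 4, where Tnfaip6 (6.84 FPKM) and Inha (0.760 FPKM) were the highest of them. The 4 blood cell markers in the table were at 0.

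Tusc3, the oxidoreductase subunit of the Stt3b form, was the member with the highest mean level in the P dataset. It lies on chromosome 8 (GRCm38, 39005867 to 39165112, plus strand). FPKM values of Tusc3 were 87.1, 191, 204 and 108 in NP replicates 1 to 4 and 486, 135, 724 and 723 in P replicates 1 to 4. The P libraries 1, 3 and 4 thus lay above every NP library, whereas P replicate 2 lay below NP replicates 2 and 3, so the groups overlapped. The mean was 148 ± 58.6 FPKM (SD, n = 4) in NP and 517 ± 278 FPKM (SD, n = 4) in P, a ratio of 3.50, which was 4.37 without P replicate 2 and 3.04 without P replicate 3. On the log2(FPKM + 1) scale the difference was 1.63 (SE 0.64, 95% interval 0.26 to 3.0), which was not called by limma (adjusted p = 0.440). These values corresponded to 375 to 2245 recovered reads in NP and 656 to 4861 in P, at a searched gene length of 1511 bases against 3432 bases for the merged exons of the annotation.

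Among the genes tested by limma, those with a mean of more than 0.1 FPKM in at least 1 dataset, the log2 difference of Tusc3 was higher than that of 99.1%, and its mean level was higher than that of 94.9% in NP and of 99% in P. Of 2429 genes with a mean above 50 FPKM in a dataset, 51 (2.1%) had a larger log2 difference. The study named Tusc3 among abundant polysome-associated mRNAs, with reference to its own DESeq2 comparison of P with NP in these same libraries. Its rank and direction here are therefore not independent evidence. The limma fit is another test, and it called 0 genes higher in P, whereas the study's DESeq2 test listed mRNAs enriched in either dataset. The lack of calls by limma is therefore no evidence that no mRNA was enriched in P. P replicate 2, the P library with the lowest Tusc3, was also the P library with the highest granulosa marker sum (62.6 FPKM, against 16.1, 7.03 and 1.61 in P replicates 1, 3 and 4). In P replicate 2 this sum was Cyp19a1 alone, the other markers of the list being at 0. The sums were 6.07, 6.86, 32.3 and 75.4 FPKM in NP replicates 1 to 4, where the library with the lowest Tusc3 (replicate 1) had the lowest sum. The part of this sum in the result was not tested.

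**Figure D2:**
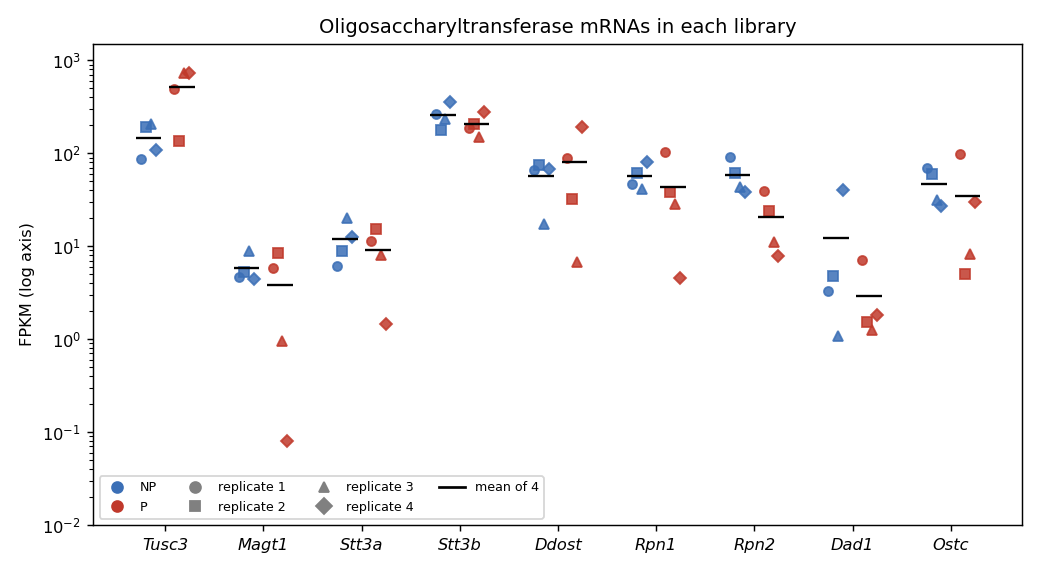
FPKM of the 9 members (log axis) in each NP library (blue) and P library (red), with 1 symbol per replicate number and a black line at the mean of 4. Tusc3 in P replicates 1, 3 and 4 sits between 486 and 724, above all NP libraries, while P replicate 2 sits at 135, and in every member the groups overlap.

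Magt1, the alternative to Tusc3 in the same complex, was low beside Tusc3 in both datasets. Its mean level was higher than that of 50.1% of genes tested in NP and of 49.4% in P. Its gene lies on the X chromosome (105968084 to 106011906, minus strand). Magt1 measured 4.63, 5.27, 8.79 and 4.397 FPKM in NP and 5.83, 8.41, 0.963 and 0.0799 FPKM in P. P replicates 3 and 4 were below every NP library and P replicates 1 and 2 were within the NP range. The mean was 5.77 ± 2.05 FPKM in NP and 3.82 ± 3.97 FPKM in P (SD, n = 4 each), and the log2 difference of -0.94 (SE 0.93, 95% interval -2.93 to 1.05) was not called by limma (adjusted p = 0.691). The ratio of the means, 0.662, was 0.397 without P replicate 2. Counting limited the lowest value, since P replicate 4 held 1 recovered read (exact Poisson 95% interval 0.00202 to 0.445 FPKM, counting error only).

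A comparison within each library does not depend on how the libraries were scaled to each other. Tusc3 made up 94.95%, 97.3%, 95.9% and 96.1% of the summed FPKM of Tusc3 and Magt1 in the NP libraries, and 98.8%, 94.2%, 99.9% and 99.99% in the P libraries. Of these 2 alternative subunits, Tusc3 was thus the major mRNA in all 8 libraries. The lowest and the 3 highest shares were both among the P libraries, so the groups overlapped, with means of 96.1 ± 0.972% and 98.2 ± 2.75% (SD, n = 4 each).

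Stt3b, the catalytic subunit of the form that takes up Tusc3 or Magt1, was abundant in both datasets. The gene lies on chromosome 9 (115242607 to 115310421, minus strand). Stt3b measured 266, 176, 236 and 353 FPKM in NP and 188, 208, 148 and 280.1 FPKM in P. One P library, replicate 3, lay below the NP range and the others lay within it. Means were 258 ± 73.8 FPKM and 206 ± 55.3 FPKM (SD, n = 4 each), and the log2 difference was -0.31 (SE 0.51, 95% interval -1.41 to 0.78), not called by limma (adjusted p = 0.796). Its standard error was the smallest of the 9 members.

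Stt3a, the catalytic subunit of the other form, lies on the same chromosome (36731275 to 36767679, minus strand) and was low beside Stt3b. Its mean level was higher than that of 62.6% of genes tested in NP and of 62.3% in P. Stt3a measured 6.16, 8.77, 19.9 and 12.6 FPKM in NP and 11.4, 15.3, 8.11 and 1.44 FPKM in P. P replicate 4 was below every NP library and the other P libraries were within the NP range. The log2 difference of -0.54 (SE 0.83, 95% interval -2.32 to 1.24) was not called by limma (adjusted p = 0.788).

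The make-up of the catalytic pair was alike on average. Stt3a was 2.27%, 4.75%, 7.78% and 3.44% of the summed FPKM of Stt3a and Stt3b in NP and 5.69%, 6.84%, 5.20% and 0.510% in P. The mRNA of Stt3b was thus at least 11.85 times that of Stt3a in each library, by FPKM. Mean shares of Stt3a were 4.56 ± 2.38% in NP and 4.56 ± 2.79% in P (SD, n = 4 each). Set against its own catalytic partner, Tusc3 stood at 0.328, 1.09, 0.865 and 0.306 times the FPKM of Stt3b in NP and at 2.58, 0.652, 4.89 and 2.58 times in P. Tusc3 exceeded Stt3b in NP replicate 2 and in P replicates 1, 3 and 4, and the groups overlapped through P replicate 2.

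**Figure D3:**
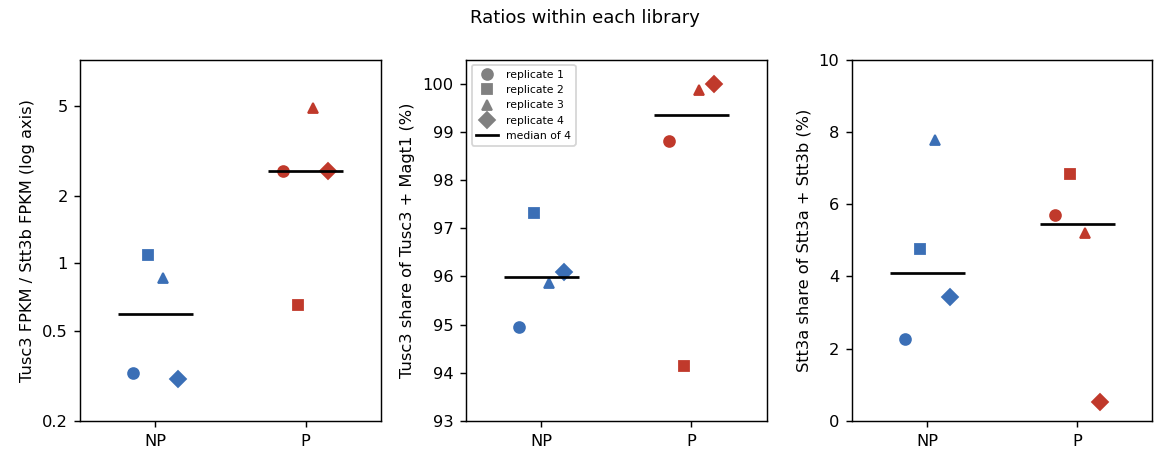
Ratios computed within each NP (blue) and P (red) library from FPKM, with 1 symbol per replicate number and a line at the median of 4. Tusc3 over Stt3b (log axis) has a median of 0.596 in NP and 2.58 in P, the Tusc3 share of Tusc3 + Magt1 (axis from 93%) stays between 94.2% and 99.99%, and the Stt3a share of Stt3a + Stt3b stays below 10%, with the groups overlapping in each panel.

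The remaining members are noncatalytic subunits, of which Ddost, Rpn1, Rpn2 and Dad1 are shared by both forms of the complex and Ostc is known as a subunit of the Stt3a form. Ddost, a scaffold subunit next to the catalytic centre, lies on chromosome 4 (138304730 to 138312628, plus strand). Ddost measured 65.9, 74.4, 17.4 and 67.5 FPKM in NP and 89.9, 32.4, 6.69 and 194 FPKM in P. P held both the lowest and the highest Ddost value of all libraries. The ratio of the means was 1.43 and became 0.764 without P replicate 4, and the log2 difference had the opposite sign at -0.12 (SE 0.91, 95% interval -2.07 to 1.83; limma adjusted p = 0.959).

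Rpn2, ribophorin II, was the member with the lowest log2 difference. It lies on chromosome 2 (157279017 to 157326319, plus strand). Rpn2 measured 92, 62.0, 43.1 and 38.2 FPKM in NP and 39.3, 24.2, 11.02 and 7.84 FPKM in P. P replicates 2, 3 and 4 lay below every NP library, and P replicate 1 lay just above NP replicate 4, so that the groups overlapped by this pair of libraries alone. The mean was 58.8 ± 24.4 FPKM in NP and 20.6 ± 14.3 FPKM in P (SD, n = 4 each), a ratio of 0.350. The log2 difference of -1.64 (SE 0.68, 95% interval -3.09 to -0.19) was not called by limma (adjusted p = 0.459). Rpn2 overlaps an antisense gene, 4922505G16Rik, over 533 bases, but this gene had a mean of 0.082 FPKM in NP and was at 0 in P.

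Rpn1, ribophorin I, which helps to hold substrates at the complex, lies on chromosome 6 (88084473 to 88105304, plus strand). Rpn1 measured 46.8, 61.3, 40.9 and 81.0 FPKM in NP and 102, 38.1, 28.5 and 4.51 FPKM in P. P replicate 1 was the highest and P replicate 4 the lowest of the 8 libraries. The log2 difference was -0.99 (SE 0.81, 95% interval -2.72 to 0.74), not called by limma (adjusted p = 0.657), and the ratio of the means, 0.754, was 0.412 without P replicate 1.

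Ostc lies on chromosome 3 (130695921 to 130709444, minus strand). Ostc measured 68.7, 60.4, 31.7 and 27.1 FPKM in NP and 97.4, 5.01, 8.29 and 29.7 FPKM in P. P replicate 1 was above and P replicates 2 and 3 were below every NP library. The log2 difference was -1.14 (SE 0.85, 95% interval -2.96 to 0.69; limma adjusted p = 0.644), and the ratio of the means, 0.747, was 0.305 without P replicate 1.

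Dad1, a small subunit that takes its name from the death of cells that lack it, lies on chromosome 14 (54235479 to 54254104, minus strand). Dad1 measured 3.28, 4.72, 1.09 and 40.3 FPKM in NP and 7.06, 1.51, 1.26 and 1.81 FPKM in P. NP replicate 4 alone made up 81.6% of the summed NP value, so the means of 12.4 ± 18.7 FPKM in NP and 2.91 ± 2.78 FPKM in P (SD, n = 4 each) rested on it. The ratio of the means was 0.236 with this library and 0.962 without it, and it was 0.124 without P replicate 1. The log2 difference of -1.01 (SE 1.03, 95% interval -3.21 to 1.19) was not called by limma (adjusted p = 0.700). The FPKM of Dad1 was set by a gene length 4.46 times that of its transcript, so its level beside other members depends on this length, as does that of Rpn2, whose gene length was 1.61 times that of its transcript.

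Across the complex, 0 of 9 members were called by limma at an adjusted p below 0.1 in either direction, beside 0.021% of 14292 genes tested (0 higher in P and 3 higher in NP). At an unadjusted p below 0.05 in limma there were 2 members, beside 9.95% of all genes tested, namely Tusc3, higher in P (beside 0.476% in that direction), and Rpn2, higher in NP (beside 9.47%). A fit by limma with voom on reads recovered from the FPKM steps also called 0 of 9 (adjusted p = 0.285 for Tusc3 and 0.381 for Rpn2), beside 1.47% of 12899 genes (0.0155% higher in P and 1.45% higher in NP). Before adjustment, only Tusc3 was below 0.05 by voom, beside 0.612% of those genes with a higher value in P. No member had groups without overlap, beside 0.357% of genes tested with all P libraries higher and 5.92% with all NP libraries higher. The log2 difference was below 0 in 8 of 9 members, and 71.4% of all genes tested were likewise below 0, with 28.6% above 0 as Tusc3 was. The median was -0.94 over the members and -0.39 over all genes, and 6 of 9 members lay below the latter.

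The sign of a log2 difference also depended on the scaling between libraries. Centring each library on its median added 0.96 to the log2 difference of every gene, so that the median of all genes moved to 0.57, 5 of 9 members were above 0, and the place of each member among all genes stayed as it was. With quantile normalization the median of all genes was -0.02 and 3 members were above 0. Tusc3 was above 0 in each of these fits (2.59 and 1.69), and Rpn2 was below 0 (-0.68 and -1.23), as were Rpn1 (-0.03 and -0.57), Dad1 (-0.05 and -0.12) and Ostc (-0.18 and -0.76). Relative to the median of all genes, the uncentred and the centred log2 difference of Tusc3 lay 2.02 above it, and that of Rpn2 lay at -1.25.

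**Figure D4:**
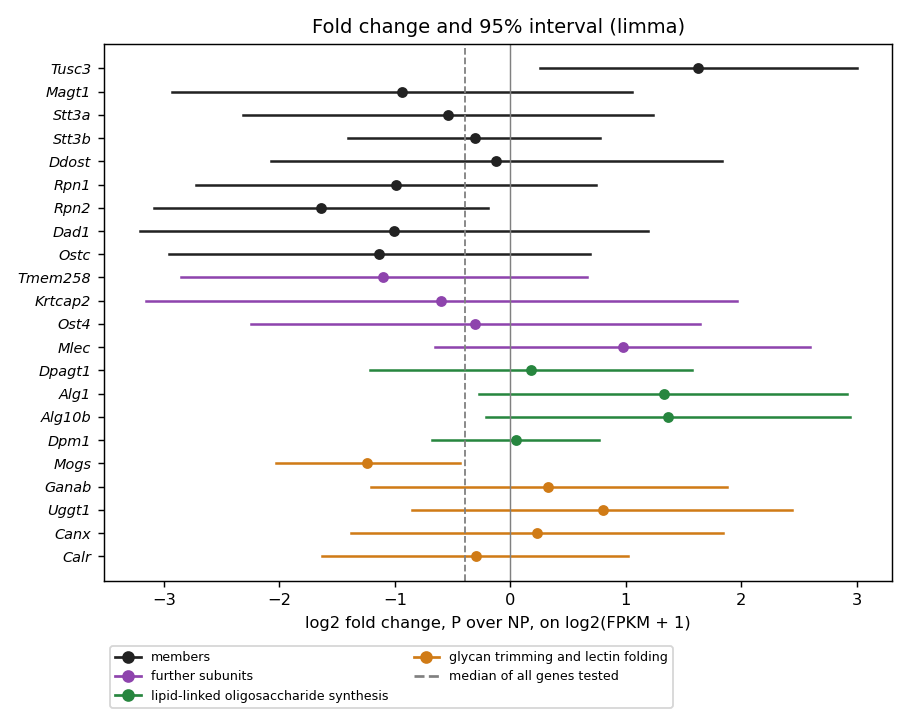
Log2 difference of P over NP on the log2(FPKM + 1) scale from limma (x axis; point) with its 95% interval (line) for the 9 members and for the named genes of 3 pathway lists, with a dashed line at the median of all genes tested (-0.39). Tusc3 (1.63) lies to the right and Rpn2 (-1.64) to the left of 0 with intervals that leave out 0, neither being called after adjustment, and the point of Mogs is set by the pseudocount because its P libraries are at 0.

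Ordered by mean level, the NP dataset ran Stt3b, Tusc3, Rpn2, Rpn1, Ddost, Ostc, Dad1, Stt3a and Magt1, and the P dataset ran Tusc3, Stt3b, Ddost, Rpn1, Ostc, Rpn2, Stt3a, Magt1 and Dad1. Neighbours in both orders had overlapping libraries, so their ranges did not separate them. Within single libraries the top was more regular, Stt3b being at rank 1 or 2 in all 8 libraries and Tusc3 at rank 1, 2 or 3. Magt1 was at rank 7 to 9 of the 9 in each library.

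The summed FPKM of the 9 members was 640.3, 644, 603 and 732 in NP and 1028, 468, 937 and 1242 in P. Tusc3 accounted for 13.6%, 29.7%, 33.9% and 14.8% of this sum in NP and for 47.3%, 28.9%, 77.3% and 58.2% in P. Without Tusc3 the sum of the other 8 was 553, 453, 399 and 624 FPKM in NP and 542, 333, 213 and 519 FPKM in P. The complete sum had a higher mean in P (919 ± 327 against 655 ± 54.8 FPKM, SD, n = 4 each). The sum without Tusc3 had a lower one (402 ± 157 against 507 ± 100.8 FPKM, SD, n = 4 each). Libraries overlapped in both cases. By replicate number, the complete sum was higher in P in 3 of 4 pairs, and the sum without Tusc3 was lower in P in each pair. No label says that equal numbers mark the same gradient, and both sums depend on the scaling between libraries. Of all genes tested, 71.4% had a log2 difference below 0.

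**Figure D5:**
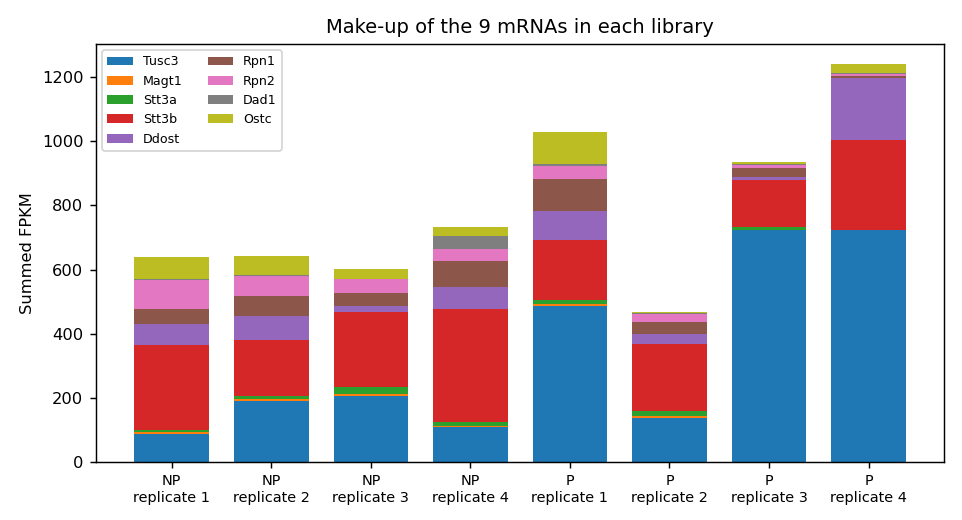
Summed FPKM of the 9 members (y axis) in each of the 8 libraries, stacked by gene. The Tusc3 segment is 13.6% to 33.9% of the bar in NP and 47.3%, 77.3% and 58.2% in P replicates 1, 3 and 4, with P replicate 2 at 28.9%, and Stt3b is the next large segment.

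Over the 8 libraries, log2(FPKM + 1) of Tusc3 had a negative Pearson r with each of the other 8 members, from -0.064 with Ddost to -0.772 with Rpn2. The highest r among the members was that of Magt1 with Stt3a (0.865), both being lowest in P replicate 4. The 5 genes most like Tusc3, of 6407 with a mean above 10 FPKM in a dataset, were Klf11 (r = 0.943), Hsd17b4 (0.938), Slc41a2 (0.926), Arl6ip1 (0.913) and Cenpf (0.91). These values are descriptions over 8 libraries, in which all genes share the depth of a library and the split into NP and P. The 5 genes were picked as the highest of 6407, and how many would reach such r by chance was not tested. Cenpf was among the 6407 through P only (mean 3.19 FPKM in NP and 17.8 FPKM in P).

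The smaller accessory subunits of the complex were measured as well. All 4 on the list were tested (Tmem258 under its older symbol 1810006K21Rik), 0 of 4 were called by limma, 0 had an unadjusted p below 0.05, 0 were called by voom, and their median log2 difference was -0.45, beside -0.39 over all genes tested. Tmem258, a small membrane subunit, had 13.7 ± 12.1 FPKM in NP and 4.69 ± 1.48 FPKM in P, and Ost4, a very small membrane subunit, had 22.7 ± 31.1 and 9.67 ± 3.13 FPKM. The NP mean of Tmem258 was 7.82 FPKM without NP replicate 1, and that of Ost4 was 7.28 FPKM without NP replicate 4. Krtcap2, a subunit of the Stt3a form, had 50.7 FPKM in NP replicate 2, 7.6 FPKM in P replicate 1 and at most 0.248 FPKM elsewhere. Mlec, malectin, which binds glucosylated glycans beside Rpn1, had 13.7 ± 6.59 FPKM in NP and 33.0 ± 25.0 FPKM in P (SD, n = 4), a log2 difference of 0.98 (limma adjusted p = 0.649), and its P mean was 21.5 FPKM without P replicate 3.

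The lipid-linked glycan that the complex transfers is made by the Alg enzymes and their helpers, of which 20 of the 22 reported here were tested. Of these, 0 were called by limma or voom, 2 (Alg2 and Alg9, named because they were the only ones) had an unadjusted p below 0.05 in limma, both higher in NP (beside 9.47% of all genes tested), and the median log2 difference was 0.11, beside the same -0.39. Alg1, the mannosyltransferase that adds the first mannose, had 26.2 ± 18.3 FPKM in NP and 55.2 ± 23.4 FPKM in P (log2 difference 1.33, limma adjusted p = 0.545). Alg10b, which adds the last glucose, had 27.7 ± 16.9 and 70.8 ± 42.0 FPKM (log2 difference 1.37, limma adjusted p = 0.535). The groups overlapped in both of these genes. Dpagt1, the enzyme of the initial step, and Dpm1, which makes the mannose donor, were low in both datasets (0.757 ± 0.877 and 0.354 ± 0.183 FPKM in NP, 1.74 ± 3.17 and 0.448 ± 0.472 FPKM in P). The mean of Dpagt1 was 0.336 FPKM without NP replicate 2 and 0.164 FPKM without P replicate 1. Alg6, a glucosyltransferase, was listed at 0 in all libraries except NP replicate 3 (0.0161 FPKM, 1 recovered read).

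Of the 14 genes of glycan trimming and lectin-assisted folding, which act on the glycan after its transfer, 13 were tested, 0 were called by limma, and the median log2 difference was 0.23, again beside -0.39 over all genes. At an unadjusted p below 0.05 in limma 1 was higher in P (Prkcsh, beside 0.476% of all genes tested) and 2 were higher in NP (Mogs and Ngly1, beside 9.47%), and these last 2 were also the ones whose groups did not overlap (beside 5.92% of genes with all NP libraries higher). Mogs, the glucosidase that removes the outermost glucose, had 1.52, 0.798, 2.19 and 1.14 FPKM in NP and was listed at 0 in the 4 P libraries, where 3 reads would have given 0.221 to 0.387 FPKM. It rested on 3 to 46 recovered reads per NP library, and it was the only gene of the pathway lists called by voom (limma-voom adjusted p = 0.0770, limma adjusted p = 0.405). Ganab, the next glucosidase, had 29.1 ± 9.55 FPKM in NP and 49.0 ± 49.0 FPKM in P, and Uggt1, which puts a glucose back on unfolded proteins, had 16.1 ± 8.29 and 32.7 ± 25.7 FPKM. The P mean of Ganab was 24.9 FPKM without P replicate 3, and that of Uggt1 was 20.7 FPKM without P replicate 1. The lectin chaperones Canx (24.1 ± 17.8 and 27.6 ± 19 FPKM) and Calr (171 ± 27.1 and 171 ± 129.7 FPKM) had means that differed by less than the SD of either dataset (n = 4 each), but the P mean of Calr was 109 FPKM without P replicate 4.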

How the data were processed

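The data comprised 8 RNA-seq libraries (4 NP, 4 P), grouped by their titles. The authors depleted ribosomal RNA, reverse transcribed with random and oligo(dT) primers, amplified the cDNA, used Trim Galore 0.4.1 for trimming and HISAT2 2.0.5 for alignment to GRCm38, and deposited gene values in FPKM from Seqmonk, on a linear scale and with no further normalization between libraries. Their gene annotation was not given in the sources used here. Deposited means and ratios of expressed genes and the authors' DESeq2 results were not used.

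P was compared with NP by limma 3.58.1 in R 4.3.3 (lmFit, eBayes with trend, 2-sided) on log2(FPKM + 1). The fit took the 14292 genes whose mean exceeded 0.1 FPKM in either dataset, with p-values adjusted over all of them by Benjamini-Hochberg and a threshold of 0.1. FPKM is no count, so the DESeq2 test of the study was not run. A fold change on this scale understates that of low genes. Whole reads were recovered from FPKM steps (tolerance 0.01 of a read plus 2e-06 of the value) for 13590 of 15585 genes above 0, at the annotated length for 6978 and at a searched length of 100 to 30000 bases for 6612, which is the shortest that fits, so these reads may be a whole fraction of the true ones. Of the members, 4 had the annotated and 5 a searched length. It was not settled if a recovered read stands for a fragment. The reads went into limma's voom as an alternative. The other alternatives were the pseudocount, the filter, centring, quantile normalization, a replicate block and leaving out each library. Amplified reads without molecular identifiers are not independent molecules, so intervals on reads cover counting error only. The study describes the libraries of each dataset as independent biological replicates.

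Named were all members, the 4 further subunits, 10 pathway genes chosen for their place in the pathway (another listed gene is not reported here), any pathway gene called by limma, and the 5 genes with the highest Pearson r with Tusc3. Alg2, Alg9, Prkcsh and Ngly1 were named after their values were seen. The members and lists were chosen with earlier results of these data known. The limma script was tested on simulated data. Python 3.11.15 with pandas 2.3.3, scipy 1.17.1 and matplotlib 3.10.9 was used for the rest, and Biopython 1.88 for aligning coding sequences.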

Additional observations from a re-analysis of the deposited data

Results flagged for a closer look

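Among 50 groups of 4 libraries checked by Dixon's test at the 95% level, 9 held a library far from the others, where chance flags about 1 in 20 groups of normally distributed values, which FPKM with zeros is not. Of the members, Ddost was low in NP replicate 3 (17.4 FPKM, the others 65.9 to 74.4), and Dad1 was high in NP replicate 4 (40.3 FPKM, the others 1.09 to 4.72) and in P replicate 1 (7.06 FPKM, the others 1.26 to 1.81). Of the further subunits, Krtcap2 stood apart in NP replicate 2 (50.7 FPKM, the others at most 0.105) and in P replicate 1 (7.6 FPKM, the others at most 0.248), and Ost4 in NP replicate 4 (68.8 FPKM, the others 3.46 to 13.6). Of the pathway genes, Dpagt1 was high in P replicate 1 (6.48 FPKM), Ganab in P replicate 3 (122 FPKM) and Alg6 in NP replicate 3 (0.0161 FPKM, which is 1 recovered read, the others at 0).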

How the results depend on the processing

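Of 329 refitted log2 differences over 22 genes and 15 settings, 296 kept their direction and their side of the threshold, 32 changed direction and 1 passed the threshold, that of Mogs by voom (-4.89). Tusc3 stayed positive and uncalled by limma, at 1.38 to 2.59 with adjusted p from 0.108 to 0.731, the lowest under median centring. Centring added 0.96 to every gene, a shift common to all that gave 7 of the 32 changes of sign without moving any gene relative to the others: Magt1 (0.01), Stt3a (0.42), Stt3b (0.64), Ddost (0.84), Krtcap2 (0.35), Ost4 (0.65) and Calr (0.65). Quantile normalization turned Stt3a (0.12), Ddost (0.18) and Ost4 (0.41), a pseudocount of 0.1 turned Dpagt1 (-0.36) and Dpm1 (-0.21), and voom turned the same pair (-0.69 and -0.57). Leaving out 1 library gave ranges that crossed 0 for Stt3a (-0.87 to 0.04), Ddost (-0.81 to 0.74), Krtcap2 (-1.35 to 0.81), Ost4 (-0.81 to 0.51), Dpagt1 (-0.5 to 0.48), Dpm1 (-0.1 to 0.19), Ganab (-0.25 to 0.78), Canx (-0.16 to 0.64) and Calr (-0.76 to 0.17). The number of members without overlap was 0, became 1 (Tusc3, beside 5.04% of all genes with P higher) with libraries scaled to one median, and ranged from 0 to 2 without 1 library. These were Tusc3 without P replicate 2 (beside 1.01% of all genes with P higher), Rpn2 without NP replicate 4 (beside 10.3% with NP higher), and Rpn1 and Rpn2 without P replicate 1 (beside 11.2% with NP higher), where leaving out the overlapping library itself makes the groups separate. Calls in the pathway lists went from 0 to 1 with voom. The cause of these changes was not tested. Among all genes, limma called 3, or 0 to 5 over the other limma settings, and voom called 189.

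In the study each gradient gave an NP and a P pool, but no label says that equal numbers mark the same gradient. Same-numbered libraries correlated at 0.052 to 0.251 in their deviations from the group means (other numbers at -0.135 to 0.136). Every P library and NP replicates 1, 3 and 4 correlated best with their own number. NP replicate 2 correlated more with P replicate 1 (0.136) than with P replicate 2 (0.052). The main fit took the libraries as unpaired, so it leaves out the pairing by gradient. With the replicate number as a block, the adjusted p in limma was 0.339 for Tusc3 and 0.345 for Rpn2. In that fit 0 of 9 members were called and 1 gene was called in all. By replicate number, Rpn2 was lower in P in 4 of 4 pairs and Tusc3 was higher in P in 3 of 4. The share of all genes with such counts was not computed, but 71.4% of genes tested had a log2 difference below 0. Magt1 in P replicate 4 (1 recovered read) and Mogs (3 to 46 in the NP libraries, 0 in P) rested on few reads. P replicate 4 was not the shallowest library, since NP replicate 2 was scaled to fewer reads (1299377 against 2677946) and held 32 reads of Magt1.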
